A study of Triticum aestivum with 12 samples.

Results

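GS2 is the glutamine synthetase of the chloroplast, and bread wheat carries it as 3 homoeologous genes on the group 2 chromosomes. The genes were taken by identifier: TraesCS2A02G500400 on chromosome 2A (GS2-2A), TraesCS2B02G528300 on chromosome 2B (GS2-2B) and TraesCS2D02G500600 on chromosome 2D (GS2-2D). They are 3 of the 107411 genes in the deposited table, of which 74182 had a value above 0 in at least 1 library, and all 3 were among the 44026 genes tested. The chromosome is read from the identifier. Start, end and exon positions are not given here, because no annotation used here carries these identifiers.

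Glutamine synthetase joins ammonium to glutamate to give glutamine. In leaves the chloroplast enzyme takes up the ammonium set free in photorespiration and the ammonium made from nitrate, and ferredoxin-dependent glutamate synthase in the same compartment then turns glutamine back into glutamate. Bread wheat is a hexaploid with A, B and D subgenomes, so a gene of this kind is usually present as 3 closely similar copies whose transcripts are told apart only by the positions at which they differ.

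RNA from the flag leaf, the uppermost leaf below the ear, was sequenced in 12 libraries, 3 from each of 4 varieties, namely AAC Starbuck and AAC Concord together with AAC Magnet and AAC Tradition. All are modern Canada Western Red Spring wheat varieties, and every library carries the treatment label Control, so no stress treatment is compared here. In the study's grouping, AAC Starbuck and AAC Concord belong to the Western ecozone, the other varieties to the Eastern one. AAC Starbuck and AAC Magnet are the later releases within their ecozone, and AAC Concord and AAC Tradition the earlier ones. The labels describe leaves taken in field plots, with a pair of flag leaves per plot, whereas the study's methods describe greenhouse plants under control conditions, and these accounts were not reconciled here. Values are normalized counts that are not corrected for transcript length. The total per library was 5077330 to 5902642 normalized counts, a depth of about 4494183 to 7077531 reads was estimated from the smallest step between low values, and 58024 to 61166 genes were above 0. The label flag leaf could not be checked against leaf marker genes, for the same want of an annotation.

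One library stood apart on a single chromosome, and it is the chromosome of GS2-2D. In AAC Concord replicate 1, the 1132 genes of chromosome 2D with a mean of at least 50 normalized counts had a median log2 difference of -0.89 from the mean of AAC Concord replicates 2 and 3, which is a ratio of 0.539. The quartiles were -1.12 and -0.67. The low values ran along the whole chromosome: with its genes cut in identifier order into 3 stretches of equal number, the medians were -0.90, -0.92 and -0.86. Of the 2D genes, 85.9% were lower by more than 0.5 on the log2 scale, against 5.05% of the 19573 genes on the other 20 chromosomes. In the same library the medians of those other chromosomes lay between -0.0066 and 0.048. Set against the mean of the 9 libraries of the other varieties, chromosome 2D had a median difference of -0.89 in AAC Concord replicate 1, 0.0062 in replicate 2 and 0.044 in replicate 3. In those 9 libraries the median of every chromosome, against the mean of the other libraries of the same variety, was between -0.037 and 0.047. The number of chromosome copies was not measured, and the cause of the low chromosome was not tested. Most results on GS2-2D that rest on AAC Concord are therefore given with and without this library. Some are given only with it. These include the correlations after removal of the variety means, the places by counts and the sum as a percentage of a library.

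**Figure D1:**
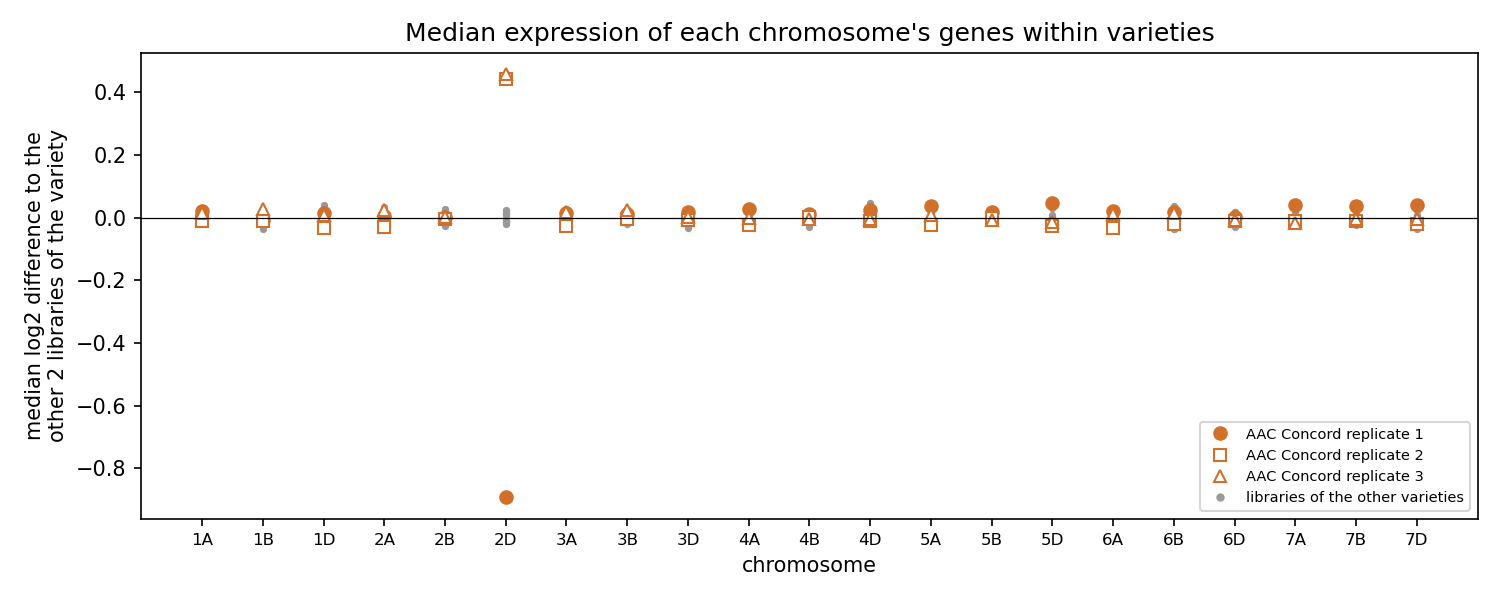
Median log2 difference of the genes of each chromosome in each library, against the mean of the other libraries of its variety (y axis), by chromosome (x axis). The point of chromosome 2D in AAC Concord replicate 1 lies at -0.89, while the other 20 chromosomes of that library lie between -0.0066 and 0.048. AAC Concord replicates 2 and 3 lie above 0 on chromosome 2D because the mean they are set against includes replicate 1.

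GS2-2B was the most abundant of the homoeologues by counts in 10 of 12 libraries. Its level was 3501, 2699 and 3682 normalized counts in AAC Starbuck replicates 1, 2 and 3, and 4043, 4209 and 4642 in AAC Concord. It was 2854, 2722 and 2414 in AAC Magnet and 3720, 3624 and 4488 in AAC Tradition. Every AAC Concord and AAC Tradition library was thus above every AAC Magnet library, and AAC Starbuck lay across the interval between them. Between AAC Concord and AAC Magnet 32.9% of all genes tested did not overlap, and between AAC Magnet and AAC Tradition 29.0%. The means were 3294 ± 523 in AAC Starbuck and 4298 ± 309 in AAC Concord, with 2664 ± 226 in AAC Magnet and 3944 ± 474 in AAC Tradition (SD, n = 3 each). From high to low the order was AAC Concord, then AAC Tradition, then AAC Starbuck, then AAC Magnet, and neighbours in this order overlapped in every case.

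GS2-2A followed the same order of varieties at a lower count. It had 2184, 1847 and 2593 normalized counts in AAC Starbuck and 2774, 2951 and 3096 in AAC Concord, with 2059, 2144 and 1667 in AAC Magnet and 2809, 2583 and 3055 in AAC Tradition. The AAC Concord and AAC Tradition libraries again lay above all 3 AAC Magnet libraries. In these pairs, 32.9% (AAC Concord) and 29.0% (AAC Tradition) of all genes tested did not overlap. The means were 2208 ± 373 in AAC Starbuck and 2940 ± 161 in AAC Concord, with 1957 ± 254 in AAC Magnet and 2815 ± 236 in AAC Tradition (SD, n = 3 each), and neighbours in this order overlapped here too.

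GS2-2D had 2832, 2263 and 3664 normalized counts in AAC Starbuck and 2300, 4220 and 4461 in AAC Concord, with 2362, 2839 and 2230 in AAC Magnet and 3576, 3331 and 3967 in AAC Tradition. Within AAC Concord, replicate 1 was near the AAC Magnet libraries, while replicates 2 and 3 were the 2 highest of all 12. The order of the varieties by mean was the one seen for GS2-2B. With all libraries only AAC Magnet and AAC Tradition did not overlap, as for 29.0% of all genes tested. The AAC Concord libraries other than replicate 1 lay above every library of the other varieties. Such separation was common with that library left out. Of all genes tested, 42.0% then did not overlap between AAC Concord and AAC Starbuck. The shares were 43.3% against AAC Magnet and 39.1% against AAC Tradition. The means were 2919 ± 704 in AAC Starbuck and 3660 ± 1184 in AAC Concord, with 2477 ± 321 in AAC Magnet and 3624 ± 321 in AAC Tradition (SD, n = 3 each), and AAC Concord without replicate 1 averaged 4340. The low value in AAC Concord replicate 1 was a log2 difference of -0.92 from replicates 2 and 3, a ratio of 0.530. Of the 2D genes measured, 47.7% were lower still, so GS2-2D was near the median of its chromosome's genes. GS2-2A and GS2-2B in that library had differences of only -0.12 and -0.13, with ratios of 0.918 and 0.915.

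**Figure D2:**
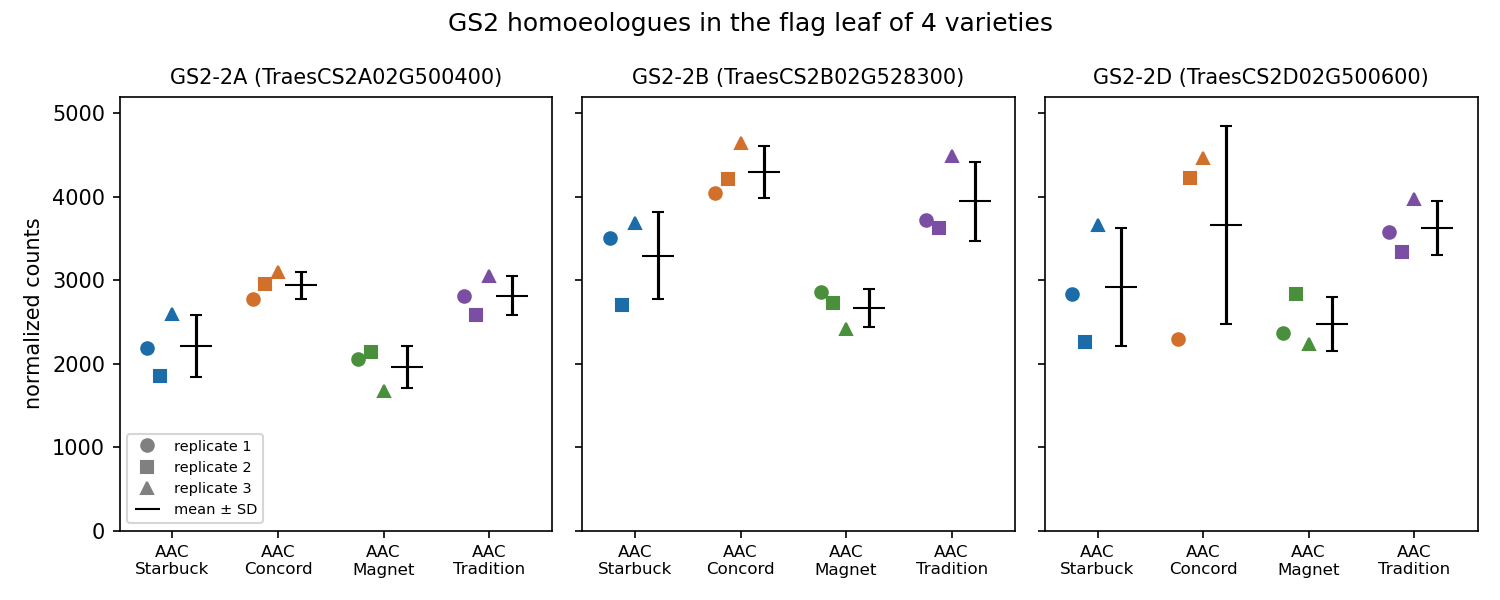
Normalized counts of GS2-2A, GS2-2B and GS2-2D (y axis, from 0) in each library of the 4 varieties (x axis). Points are libraries, with the marker giving the replicate, and bars are the mean ± SD of 3 libraries. AAC Magnet is the lowest variety by mean in every panel, and GS2-2D in AAC Concord replicate 1 lies at 2300, below the 4220 and 4461 of the other AAC Concord libraries.

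The residual SD on the log2 scale after removing the variety means was 0.172 for GS2-2A and 0.168 for GS2-2B, below the median of 0.221 over 563 tested genes with a mean of 1000 to 10000 normalized counts. For GS2-2D it was 0.336, at the upper quartile of those genes. Over the 11 libraries other than AAC Concord replicate 1 it was 0.222 for GS2-2D, 0.180 for GS2-2A and 0.175 for GS2-2B, with a median of 0.204 over the same 563 genes. In order of normalized counts within a library, GS2-2B stood between place 90 and place 161, GS2-2D between 95 and 227, and GS2-2A between 166 and 261, where place 1 is the gene with the most counts. These places are by counts and are not corrected for length.

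Added over the 3 homoeologues, GS2 came to 8421 ± 1567 normalized counts in AAC Starbuck and 10898 ± 1596 in AAC Concord, with 7097 ± 714 in AAC Magnet and 10384 ± 1015 in AAC Tradition (SD, n = 3 each). AAC Concord without replicate 1 averaged 11789. The AAC Concord and AAC Tradition libraries did not overlap with those of AAC Magnet, and all other pairs of varieties overlapped. Of all genes tested, 32.9% did not overlap between AAC Concord and AAC Magnet, and 29.0% between AAC Magnet and AAC Tradition. With AAC Concord replicate 1 left out, AAC Starbuck and AAC Concord did not overlap either, as for 42.0% of all genes tested. As a percentage of all normalized counts of a library, the sum was 0.158 ± 0.0232 in AAC Starbuck and 0.190 ± 0.0238 in AAC Concord, with 0.134 ± 0.0113 in AAC Magnet and 0.180 ± 0.0134 in AAC Tradition (SD, n = 3 each). The lowest library was at 0.122% and the highest at 0.211%. No test was run on the sum, which is built from the genes themselves.

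Over all 12 libraries, the division of the sum among the homoeologues varied less than its size. The SD was 5.20%, 6.07% and 9.48% of the mean for the GS2-2A, GS2-2B and GS2-2D shares, against 21.0% for the sum. Within AAC Concord alone the GS2-2D share varied more than the sum, with 20.3% against 14.6%. Without AAC Concord replicate 1, GS2-2A took 25.4% to 28.3% of the sum in the other 11 libraries (mean 26.7 ± 0.963), GS2-2B took 35.3% to 41.1% (38.1 ± 1.59) and GS2-2D took 32.5% to 37.1% (35.1 ± 1.63, SD, n = 11 each). AAC Concord replicate 1 lay outside all 3 ranges, with 30.4% from GS2-2A, 44.3% from GS2-2B and 25.2% from GS2-2D. The other AAC Concord libraries, replicates 2 and 3, had 25.9% and 25.4% from GS2-2A, 37.0% and 38.1% from GS2-2B, and 37.1% and 36.6% from GS2-2D. By variety, GS2-2D averaged 34.4 ± 2.09% in AAC Starbuck and 33.0 ± 6.70% in AAC Concord, with 34.9 ± 2.22% in AAC Magnet and 34.9 ± 0.462% in AAC Tradition (SD, n = 3 each). For each homoeologue, the ranges of the share overlapped between every pair of varieties. Without AAC Concord replicate 1, the GS2-2D shares of the remaining AAC Concord libraries lay above those of AAC Tradition (35.4%, 34.9% and 34.5%). Their GS2-2A shares then lay below those of AAC Magnet (28.3%, 27.8% and 26.4%) and AAC Tradition (27.8%, 27.1% and 26.5%). In all other comparisons with a variety, the shares of these AAC Concord libraries overlapped. How often shares separate with so few libraries was not counted, so nothing is drawn from these separations.

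GS2-2A was the lowest of the homoeologues in nearly every library, while the order of GS2-2B and GS2-2D was less fixed. GS2-2B was above GS2-2A in 12 of 12 libraries, with a ratio of 1.27 to 1.60. GS2-2D was above GS2-2A in 11 libraries, and the exception was AAC Concord replicate 1, with a ratio of 0.829. GS2-2B was above GS2-2D in 10 libraries. The exceptions were AAC Concord replicate 2 and AAC Magnet replicate 2. The ratio of GS2-2D to GS2-2B had a median of 0.921 over the 12 libraries. It ran from 0.569 in AAC Concord replicate 1 to 1.04 in AAC Magnet replicate 2. The homoeologues are close in sequence, and Salmon, the program used for counting, divides reads that fit several copies by estimation, so the split between them is less certain than the sum.

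**Figure D3:**
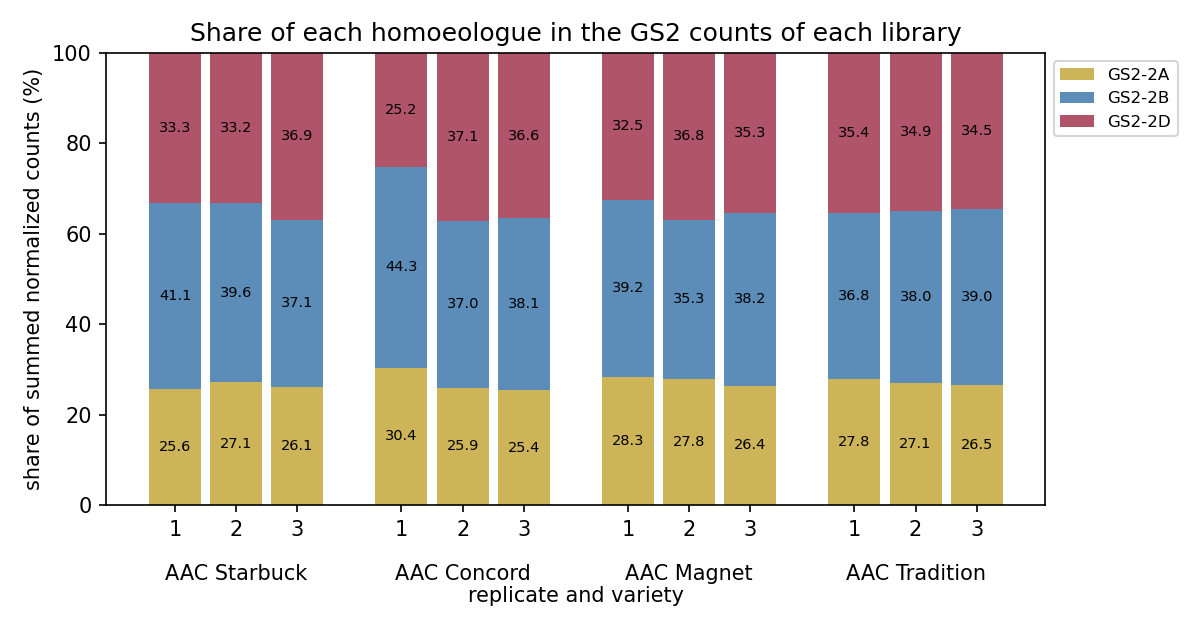
Share of the summed GS2 normalized counts from each homoeologue, in percent, for the 12 libraries grouped by variety. AAC Concord replicate 1 stands apart with 25.2% from GS2-2D, whereas that share is 32.5% to 37.1% in the other 11 libraries.

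Over the 12 libraries, the log2 levels of GS2-2A and GS2-2B varied together, with a Pearson r of 0.962 and a Spearman rho of 0.986. The r of GS2-2D was 0.819 with GS2-2A and 0.783 with GS2-2B (rho 0.867 and 0.818). Without AAC Concord replicate 1, the r over 11 libraries was 0.960 for GS2-2A with GS2-2B, 0.972 for GS2-2A with GS2-2D and 0.945 for GS2-2B with GS2-2D. After the variety means were removed, r over the 12 libraries was 0.894, 0.723 and 0.665 in the same order of pairs, so the genes also moved together among libraries of 1 variety. These are descriptions: the points share libraries and normalization, and reads may be divided between the copies.

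The comparison of varieties asks whether flag leaves of these wheats differ in expression under control conditions. In limma's F test across the 4 varieties, 22.1% of all genes tested had an adjusted p under 0.05. Of the GS2 genes, GS2-2B passed (adjusted p = 0.035), while GS2-2A had an adjusted p of 0.052 and GS2-2D of 0.31. The call on GS2-2B was lost when any of 8 libraries was left out: AAC Concord replicate 1 (adjusted p = 0.055), 2 (0.069) or 3 (0.077), AAC Magnet replicate 1 (0.064), 2 (0.077) or 3 (0.10), and AAC Tradition replicate 1 (0.054) or 2 (0.050, rounded from just above the limit). GS2-2A passed without AAC Starbuck replicate 3 (0.037), and GS2-2D came to 0.065 without AAC Concord replicate 1.

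Among the 6 pairs of varieties, AAC Concord minus AAC Magnet was the only one with a homoeologue called in the fit of all 12 libraries. GS2-2B was higher in AAC Concord by 0.69 on the log2 scale (SE 0.16, 95% interval 0.33 to 1.05, adjusted p = 0.017), and GS2-2A by 0.59 (SE 0.16, interval 0.23 to 0.96, adjusted p = 0.036). In linear means the ratio was 1.61 for GS2-2B and 1.50 for GS2-2A. GS2-2D had a difference of 0.51 (SE 0.26, interval -0.06 to 1.09, adjusted p = 0.23). That made 2 of 3 homoeologues called, in a comparison in which 14.0% of all genes were called. The libraries of this pair did not overlap for GS2-2A and GS2-2B, as for 32.9% of all genes tested. Without AAC Concord replicate 1 the difference of GS2-2D was 0.82 (SE 0.21, adjusted p = 0.038), and GS2-2A then missed the limit (0.64, adjusted p = 0.061) while GS2-2B kept its call (0.73, adjusted p = 0.033).

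With 1 library left out at a time, the call on GS2-2B in this pair was lost in 2 of 12 fits and that on GS2-2A in 7. For GS2-2A these include the fit without AAC Concord replicate 1 given above. For GS2-2B the adjusted p was 0.055 without AAC Concord replicate 3 and 0.060 without AAC Magnet replicate 3. For GS2-2A it was 0.093 without AAC Concord replicate 2, 0.094 without AAC Concord replicate 3, 0.073, 0.052 and 0.12 without AAC Magnet replicate 1, 2 and 3, and 0.051 without AAC Tradition replicate 1.

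AAC Magnet minus AAC Tradition gave differences of similar size in all 3 homoeologues, none of them called. They were -0.53 (SE 0.16) for GS2-2A, -0.56 (SE 0.16) for GS2-2B and -0.55 (SE 0.26) for GS2-2D, and the libraries of these varieties did not overlap for any of the homoeologues, as for 29.0% of all genes tested. The adjusted p values were 0.078, 0.059 and 0.25, and 8.36% of all genes were called in this pair. GS2-2B was called when AAC Starbuck replicate 2 was left out of the fit (adjusted p = 0.041).

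AAC Starbuck minus AAC Concord gave log2 differences of -0.43 for GS2-2A, -0.39 for GS2-2B and -0.29 for GS2-2D (adjusted p = 0.12, 0.14 and 0.52). The libraries did not overlap for GS2-2A and GS2-2B, as for 31.5% of all genes tested, and none of the homoeologues was among the 13.4% of genes called. That of GS2-2D was -0.60 without AAC Concord replicate 1 (adjusted p = 0.11). AAC Starbuck minus AAC Tradition gave -0.36, -0.27 and -0.34 for GS2-2A, GS2-2B and GS2-2D (adjusted p = 0.24, 0.39 and 0.51), with 6.82% of all genes called. AAC Starbuck minus AAC Magnet gave 0.17, 0.30 and 0.22 (adjusted p = 0.63, 0.33 and 0.71), with 8.08% called.

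The nearest varieties were AAC Concord and AAC Tradition, with differences of 0.06 for GS2-2A (interval -0.30 to 0.43), 0.13 for GS2-2B (-0.23 to 0.49) and -0.04 for GS2-2D (-0.62 to 0.53). The adjusted p values were 0.86, 0.69 and 0.95, against 9.67% of all genes called. Without AAC Concord replicate 1, GS2-2D had a difference of 0.26 (adjusted p = 0.54), so the sign of this small difference turned with that library.

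Under the study's rule for differentially expressed genes, which also asks for a log2 fold change above 1 or below -1, 0 of 3 homoeologues passed in any of the 6 pairs. The background shares under that rule were 9.00% for AAC Starbuck minus AAC Concord, 6.11% for AAC Starbuck minus AAC Magnet and 4.97% for AAC Starbuck minus AAC Tradition. They were 9.26% for AAC Concord minus AAC Magnet, 7.05% for AAC Concord minus AAC Tradition and 6.21% for AAC Magnet minus AAC Tradition.

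**Figure D4:**
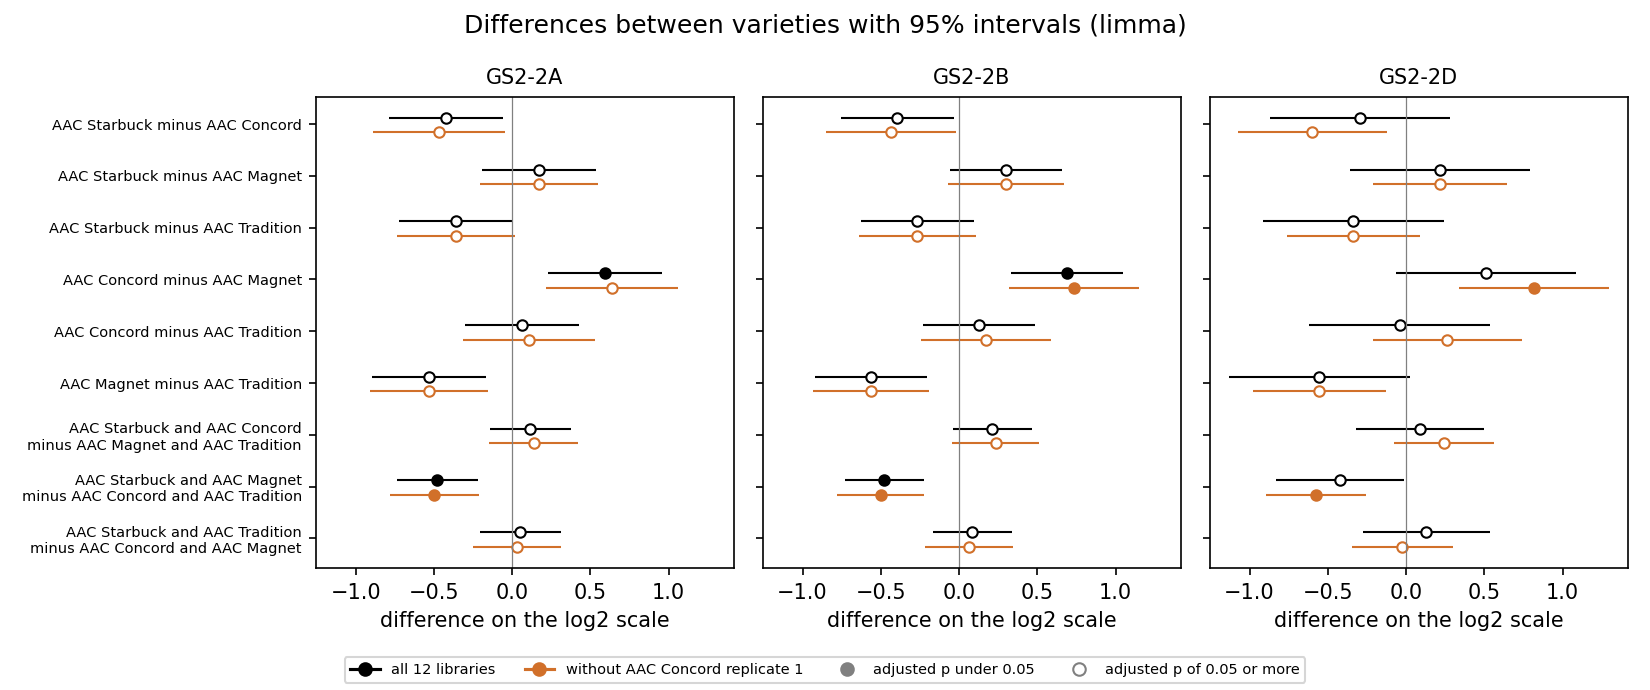
Log2 difference (x axis) of each homoeologue in 9 comparisons (y axis), with limma's 95% interval, over all 12 libraries (black) and without AAC Concord replicate 1 (orange). Filled points have an adjusted p under 0.05. With all libraries the filled points are GS2-2A and GS2-2B in AAC Concord minus AAC Magnet and in AAC Starbuck and AAC Magnet minus AAC Concord and AAC Tradition.

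Comparisons of 2 varieties with the other 2 were made by release group, by ecozone and by the pairing of the study's wax comparison. GS2-2A and GS2-2B were lower in AAC Starbuck and AAC Magnet, the later releases, than in AAC Concord and AAC Tradition, the earlier ones. GS2-2A had 1667, 2102 and 2593 normalized counts as the lowest, median and highest of the 6 libraries of AAC Starbuck and AAC Magnet, against 2583, 2880 and 3096 in the 6 of AAC Concord and AAC Tradition. GS2-2B had 2414, 2788 and 3682 in AAC Starbuck and AAC Magnet, against 3624, 4126 and 4642 in AAC Concord and AAC Tradition. For both genes only 1 library of each side reached into the range of the other. The share of all genes that separate as far between these sides was not counted. GS2-2D had 2230, 2597 and 3664 in AAC Starbuck and AAC Magnet, against 2300, 3771 and 4461 in AAC Concord and AAC Tradition, where 4 and 3 libraries lay in the overlap. With AAC Concord replicate 1 left out, the 5 libraries of AAC Concord and AAC Tradition had 3331, 3967 and 4461, and 1 and 2 libraries lay in the overlap.

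The log2 difference was -0.48 for GS2-2A (SE 0.12, interval -0.73 to -0.22, adjusted p = 0.021) and -0.48 for GS2-2B (SE 0.11, interval -0.73 to -0.23, adjusted p = 0.019). For GS2-2D it was -0.42 (SE 0.18, adjusted p = 0.16), and -0.58 without AAC Concord replicate 1 (SE 0.14, adjusted p = 0.029). So 2 of 3 homoeologues were called with all libraries, against 13.5% of all genes. With 2 varieties on each side, the time of release cannot be told apart from any other difference between these varieties. In every comparison of 2 varieties with the other 2, the SE and p-values come from the spread between libraries within a variety. They do not measure the spread between varieties of a group. The calls on GS2-2A and GS2-2B were kept under all 20 alternatives tried, with adjusted p values of 0.0090 to 0.049 for GS2-2A and 0.0082 to 0.047 for GS2-2B.

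The libraries also differed in make-up along this contrast. The total of the normalized counts was 5077330 to 5510417 in AAC Starbuck and AAC Magnet, against 5546261 to 5902642 in AAC Concord and AAC Tradition, with no overlap. The 100 genes with the most counts held 10.6% to 13.5% of the total in AAC Starbuck and AAC Magnet, against 13.2% to 14.4% in AAC Concord and AAC Tradition, and the part of this share in the result was not tested. With every library scaled to the same total, GS2-2A had a difference of -0.36 (adjusted p = 0.041) and GS2-2B of -0.36 (adjusted p = 0.039), while the median of all genes tested moved to 0.12.

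Between the ecozones, AAC Starbuck and AAC Concord minus AAC Magnet and AAC Tradition gave 0.12 for GS2-2A, 0.21 for GS2-2B and 0.09 for GS2-2D (adjusted p = 0.61, 0.30 and 0.83), with 9.76% of all genes called. In the pairing of the wax comparison, AAC Starbuck and AAC Tradition minus AAC Concord and AAC Magnet gave 0.05, 0.08 and 0.13 (adjusted p = 0.85, 0.73 and 0.75), with 10.1% of all genes called. None of the homoeologues was called in either. When AAC Concord replicate 1 was left out, GS2-2D had differences of 0.24 between the ecozones (adjusted p = 0.37) and -0.02 in the wax pairing (adjusted p = 0.95).

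The genes most like each homoeologue were sought by Pearson r of log2 levels over the 12 libraries, within the 20926 genes that averaged 50 normalized counts or more. For GS2-2A they were TraesCS2B02G260200 (r 0.986), TraesCS5D02G417600 (r 0.974) and TraesCS2A02G348500 (r 0.950), with GS2-2B itself in place 3 when the homoeologues were counted. For GS2-2B they were TraesCS2B02G260200 (r 0.963), TraesCS2A02G234900 (r 0.962) and TraesCS2A02G066800 (r 0.960), and GS2-2A stood in place 2. TraesCS2B02G260200, with a mean of 904 normalized counts, was thus first for both, and its r with GS2-2A was still 0.941 after the variety means were removed. The median r over all 20926 genes was 0.049 for GS2-2A and 0.044 for GS2-2B, and 63 and 77 genes had an r above 0.9. No annotation used here names these genes.

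For GS2-2D the first 3 were TraesCS3A02G351800 (r 0.941), TraesCS2D02G383800 (r 0.917) and TraesCS2D02G519500 (r 0.912), and only 4 genes had an r above 0.9. GS2-2A stood in place 63 and GS2-2B in place 141 when the homoeologues were counted. Of the 100 genes most like GS2-2D, 39 lie on chromosome 2D, which holds 5.41% of the genes searched. Both patterns changed with AAC Concord replicate 1 left out. GS2-2A then stood in place 1 (r 0.972) and GS2-2B in place 14 (r 0.945), the first gene other than these was TraesCS3B02G299300 (r 0.969), and 5 of the 100 lie on 2D. For GS2-2A, 0 of the 100 most like genes lie on 2D with all libraries and 6 without that library, and for GS2-2B the numbers are 3 and 8.

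Genes near the homoeologues were counted to see whether they lie in stretches that differ between varieties. Of the 10 tested genes before and the 10 after GS2-2A in identifier order, 0 of 20 passed the F test, as did 4 of 20 (20%) around GS2-2B and 0 of 20 around GS2-2D, where 22.1% of all genes passed. With AAC Concord replicate 1 left out, 1 of the 19 still tested passed around GS2-2A, 4 of 20 around GS2-2B and 1 of 20 around GS2-2D, where 18.7% of all genes passed. With 25 genes on each side and all libraries the counts were 4 of 50 (8%), 10 of 50 (20%) and 6 of 50 (12%). In AAC Concord minus AAC Magnet, 1, 4 and 0 of the 20 neighbours of GS2-2A, GS2-2B and GS2-2D were called, against 14.0% of all genes. With AAC Concord replicate 1 left out the counts were 1 of 19, 6 of 20 and 1 of 20, against 10.8% of all genes.

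The neighbours of GS2-2D shared its low value in AAC Concord replicate 1. Their median log2 difference from replicates 2 and 3 was -0.78, and 20 of 20 were lower. Around GS2-2A the median was -0.12 with 11 of 20 lower, and around GS2-2B it was 0.062 with 8 of 20 lower. The tested genes next to GS2-2D are TraesCS2D02G500400, with a difference of -1.19 in that library, and TraesCS2D02G501100, with -1.27. Those next to GS2-2A are TraesCS2A02G500300 and TraesCS2A02G500900, and those next to GS2-2B are TraesCS2B02G528200 and TraesCS2B02G528400. None of these 6 genes passed the F test (adjusted p = 0.061 to 0.35). Their levels were low, with means of 7.2 to 18.1 normalized counts next to GS2-2A and GS2-2B. Next to GS2-2D the means were 42.3 and 51.4. A lack of calls at such levels says little about these genes.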

How the data were processed

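Per the labels, RNA of 12 flag leaf samples was sequenced as paired reads. The submitters' processing notes name CASAVA, Trimmomatic, Salmon and DESeq2, and the methods name RefSeq v2.1 as the target of Salmon, whereas the identifiers in the table are in the v1.1 style. The authors deposited 1 table of normalized counts (a signal that is not whole and not corrected for length). How the counts were normalized is not given in the sources used here. Low values (under 12) were multiples of a library's smallest step within 0.05 of a step in 88.2% to 92.8% of cases, so whole reads were not recovered and no count model was run.

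Groups came from the variety label. Log2(value + 1) was fitted with limma 3.58.1 in R 4.3.3, without a trend in the prior variance, in a single fit of the 12 libraries with variety as the only term. The filter kept genes that reached 10 normalized counts in 3 or more libraries. Fold changes are on that scale. The Benjamini-Hochberg adjustment of p-values ran over the 44026 genes tested, separately in the F test and each contrast, and called under 0.05. Nothing in the sources used here says how the 3 samples of a variety relate beyond their plots or plants, so p-values measure the spread between these samples. The fit was also run on simulated data with the same spread setting for all genes. Its outcome is not reported here, and no result rests on it. Shares, sums, likeness and neighbours were computed with pandas 2.3.3 and have no test. Genes named are the homoeologues, the 3 genes most like each and the nearest tested gene on each side. TraesCS3B02G299300 was named after its values were seen. The chromosome medians were also added after the values were seen, as were likeness, neighbours, overlap and spread without AAC Concord replicate 1.

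The members and lists were chosen with earlier results of these data known. A planned list of nitrogen assimilation genes and leaf markers stayed empty, since 0 identifiers matched the 155467 genes of the reference table. Alternatives were other pseudocounts, filters, scalings and prior variance, a block for the replicate number, fits of a pair alone, and each library left out.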

Additional observations from a re-analysis of the deposited data

How the results depend on the processing

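Limits: each variety has 3 libraries, reads that fit several homoeologues were not measured, and 1 library decides the calls on GS2-2D. Of 558 log2 fold changes by contrast and alternative, 532 kept direction and side of the limit. The F tests are not among them, and most of these contrasts were uncalled in the main fit and stayed so. In AAC Concord minus AAC Magnet, the call was kept in 19 of 21 alternatives for GS2-2B and 10 of 21 for GS2-2A. By release group both calls were kept in all 20, and the F test call of GS2-2B in 9 of 20. The F test of GS2-2A passed with a pseudocount of 10 (adjusted p = 0.030), a mean of at least 50 (0.024) and a trend in the prior variance (0.030). That of GS2-2B was lost with no filter (0.080), the same total (0.056) and the replicate block (0.052). With each library left out, the F test gave 0.037 to 0.12 for GS2-2A, 0.030 to 0.10 for GS2-2B and 0.065 to 0.50 for GS2-2D. In AAC Concord minus AAC Magnet, 1 of 3 homoeologues rather than 2 was called with no filter, the same total, the replicate block or the fit of these varieties alone, and 0 under the limit on the fold change. GS2-2B was the one kept in the first 4, with GS2-2A at adjusted p = 0.079, 0.052, 0.059 and 0.062. With each library left out, 0 to 2 were called there, 0 to 1 in AAC Magnet minus AAC Tradition and 2 to 3 in AAC Starbuck and AAC Magnet minus AAC Concord and AAC Tradition. In AAC Magnet minus AAC Tradition, 1 was called with a pseudocount of 10, 2 with a mean of at least 50 and 1 with the trend. Signs turned only when a library was left out: GS2-2D ranged over -0.21 to 0.26 in AAC Concord minus AAC Tradition, -0.0013 to 0.24 between the ecozones and -0.023 to 0.22 in the pairing of the wax comparison, where GS2-2A ranged over -0.0092 to 0.11. Genes of chromosome 2D among the 100 most like GS2-2A, GS2-2B and GS2-2D numbered 6, 8 and 5 without AAC Concord replicate 1.

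Whether the replicate numbers pair the libraries was not tested. Residuals of libraries with the same number correlated at -0.14 to 0.21 (median 0.029, 18 pairs). Those with other numbers correlated at -0.23 to 0.18 (median -0.0067, 36 pairs). Of the 12 libraries, 7 correlated best with one of their own number. With the replicate block, 8962 genes passed the F test, against 9745 without it, and apart from the calls given above it changed none for GS2. The same total brought the median difference of all genes to between 0.11 and 0.13 in size in 4 of the 6 pairs. The causes of these shifts were not tested.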
